A study of Mus musculus with 2 samples.

Results

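The 10 genes described here encode negative regulators of mitogen-activated protein (MAP) kinase signalling: 7 dual-specificity phosphatases (Dusp1, Dusp2, Dusp4, Dusp5, Dusp6, Dusp8 and Dusp10) and 3 membrane-associated inhibitors (Spry2, Spry4 and Spred1). They were taken by gene name from the spots of a mouse expression array that are not controls, which gave 15 probes, 5 genes having 2 probes and 5 having 1. They are 10 of 26533 gene names measured on both arrays. The noise sample came from cochleae of female C57BL/6 mice aged 7 weeks, taken 3 hours after the end of a 2-hour exposure to intense noise. The baseline sample came from cochleae of female mice of that inbred strain and that age without the noise. Each group was 1 array hybridised with Cy3-labelled RNA of its own sample, and the labels used here give no number of mice per sample, no noise level and no clock time of dissection. With 1 array per group no difference could be tested across animals, and no p-value is given.

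MAP kinases (ERK, JNK and p38) carry signals from growth factors, cytokines and physical stress to the nucleus. Many of the genes they switch on encode their own inhibitors: dual-specificity phosphatases remove the activating phosphates from the kinases, and Sprouty and Spred proteins act further upstream, close to receptor tyrosine kinases and Ras. In the mouse cochlea, loss of Spry2 changes the fate of a supporting cell type, and loss of Dusp1 leads to progressive hearing loss.

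The 6 genes with the highest ratios were Dusp1, Dusp2, Dusp6, Spry4, Dusp4 and Dusp5. Their levels after noise were between 1.36-fold and 1.55-fold those at baseline. Spry2 and Dusp10 were 1.13-fold and 1.11-fold higher, and Dusp8 and Spred1 were at 0.962-fold and 0.910-fold. None of the 10 reached the 2-fold difference used as a size rule, in either direction. Of all measured genes, 0.611% passed this rule in the higher direction and 1.25% in the lower direction.

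The tissue and the arrays were checked first. Both arrays lay on 1 slide and were read in 1 scan. Levels are given relative to each array's 75th percentile of the processed signal, which was 316 (noise) and 278 (baseline), so that a relative signal of 1 stands for that percentile. All 8 hair cell markers, 8 supporting cell and tectorial membrane markers, 8 stria vascularis and lateral wall markers and 8 spiral ganglion markers looked up were measured on both arrays. The hair cell markers Slc26a5 and Atoh1 were dim, with processed signals of 5.62 and 7.49 after noise and 8.35 and 8.20 at baseline. The lowest signals that passed the scanner's background test were 4.58 (noise) and 4.35 (baseline). Median log2 ratios (noise minus baseline) were 0.04 for the hair cell list and 0.01 for the spiral ganglion list. They were 0.23 for the supporting cell list and 0.22 for the stria vascularis list. Each list had genes on both sides of 0 and none past 2-fold. Single genes ran from -0.75 for Slc26a5 to 0.67 for Pou4f3, with Atp1b2 at -0.65 and Otoa at 0.60. Markers of tissues next to the cochlea were measured too and also differed between the samples. Of skeletal muscle markers 10 of 10 were lower after noise, 5 of them at least 2-fold. That count was 1 with the spike-in scaling and 2 with the normexp background described below. The summed relative signal of these markers was 50.2 after noise and 69.4 at baseline, of which Pvalb alone gave 42.5 and 54.2. These sums therefore follow Pvalb rather than the list. Its log2 ratio of -0.35 was the nearest to 0 of the 10, and the list median was -0.97. All 9 adipocyte markers were lower, 7 at least 2-fold (summed relative signal 20.1 after noise and 80.8 at baseline), and so were all 9 measured central neuron and glia markers, 6 at least 2-fold (3.82 after noise and 12.3 at baseline). With normexp 4 of these 9 were at least 2-fold lower and their median log2 ratio was -0.53, against -1.43 in the main setting. The part of these tissues in the ratios of the 10 genes was not tested.

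Dusp1, Dusp2, Dusp4 and Dusp5 encode the phosphatases that reside in the nucleus and are induced as early response genes. Their log2 ratios (noise minus baseline) lay between 0.44 and 0.64. For Dusp1, whose protein acts on p38, JNK and ERK, the relative signal was 8.87 after noise and 5.71 at baseline, from processed signals of 2803 and 1589. This log2 ratio of 0.64 was the highest of the 10 genes, and 638 of the 26533 measured genes had a higher one. The Dusp1 probe lies on chromosome 17 from 26642624 to 26642683 (mm9, minus strand).

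Dusp2 encodes a phosphatase best known from activated blood and immune cells. Its relative signal was 3.06 after noise and 2.02 at baseline, a log2 ratio of 0.60 (probe on chromosome 2, 127163930 to 127163989, mm9). In a bulk tissue sample, more cells that express a gene and more RNA per cell cannot be told apart. Of 10 lymphocyte markers 9 were higher after noise, with a median log2 ratio of 0.52 and summed relative signals of 29.7 after noise and 19.1 at baseline. The highest were Pax5 at 1.22, whose 2 probes disagreed (0.07 and 2.38), Vpreb1 at 1.08 and Vpreb3 at 0.69. With normexp the lymphocyte median was 0.28, and Pax5 was at 0.25 and Vpreb3 at 0.78. Of 10 neutrophil and monocyte markers 7 were higher, with a median of 0.12, a highest value of 0.82 for Cxcr2, and summed relative signals of 783 after noise and 803 at baseline. The part of blood cells in the Dusp2 ratio was not tested.

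Dusp4, a nuclear phosphatase of ERK, JNK and p38, was measured by 2 probes that gave nearly the same ratio at different brightness. The brighter probe, which the array design names from a cDNA clone (chromosome 8, 35884806 to 35884865, mm9) had a relative signal of 0.877 after noise and 0.608 at baseline. The dimmer one (35882045 to 35882104) had 0.209 after noise and 0.143 at baseline. Their log2 ratios were 0.53 and 0.54. Dusp4 was thus the only one of these 4 genes for which a second measured probe gave the size of the difference again.

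Dusp5 encodes a nuclear phosphatase selective for ERK. Its brighter probe (chromosome 19, 53616779 to 53616838, mm9) had a relative signal of 0.682 after noise and 0.502 at baseline, a log2 ratio of 0.44. The other probe (53615682 to 53615741), listed under another transcript accession of the gene, did not pass the scanner's background test on the noise or the baseline array. Its processed signals were 1.90 after noise and 1.92 at baseline. The Dusp5 value therefore rests on 1 probe.

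**Figure D1:**
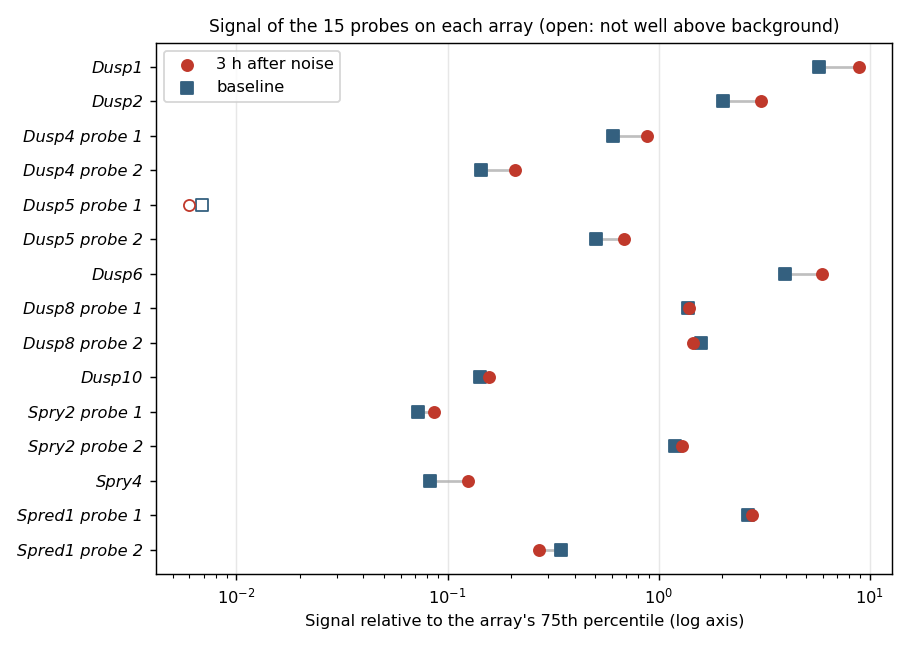
Signal of each of the 15 probes relative to the array's 75th percentile (log axis) 3 hours after noise (circles) and at baseline (squares), with 1 array per group and so no error bars. Open symbols mark the Dusp5 probe that was not well above background. The probes of Dusp1, Dusp2, Dusp4 and Dusp6 lie to the right after noise, and those of Dusp8 lie close together.

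Sequences before the transcript start were examined because several of these genes had similar ratios. The RefSeq promoter table (GRCm38.p6) held 8 of the 10 genes, all but Dusp4 and Spry4, and the 250 bases before each start were searched on both strands. The windows of 4 genes are shown, as those that held a cAMP response element (TGACGTCA), its shorter core (TGACG, also counted inside the full element), an E-box (CACGTG) or a CArG box, the site bound by serum response factor. Capitals mark these matches.
Dusp1 (chr17:26508473-26508722, minus strand): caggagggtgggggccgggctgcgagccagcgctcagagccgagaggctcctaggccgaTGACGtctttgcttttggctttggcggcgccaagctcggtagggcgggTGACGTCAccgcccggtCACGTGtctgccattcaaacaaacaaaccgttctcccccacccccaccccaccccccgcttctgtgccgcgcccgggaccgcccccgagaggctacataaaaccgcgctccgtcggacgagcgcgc
Dusp2 (chr2:127335909-127336158, plus strand): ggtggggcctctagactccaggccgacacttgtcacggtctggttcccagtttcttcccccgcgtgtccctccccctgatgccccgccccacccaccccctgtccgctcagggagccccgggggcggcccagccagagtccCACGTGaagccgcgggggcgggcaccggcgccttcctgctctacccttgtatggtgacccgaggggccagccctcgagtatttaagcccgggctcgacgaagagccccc
Dusp5 (chr19:53528895-53529144, plus strand): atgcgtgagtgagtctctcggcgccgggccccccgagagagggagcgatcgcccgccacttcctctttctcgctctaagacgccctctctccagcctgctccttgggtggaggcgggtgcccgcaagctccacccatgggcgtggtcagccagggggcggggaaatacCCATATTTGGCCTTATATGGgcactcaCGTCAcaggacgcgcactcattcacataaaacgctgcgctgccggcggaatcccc
Dusp8 (chr7:142095285-142095534, minus strand): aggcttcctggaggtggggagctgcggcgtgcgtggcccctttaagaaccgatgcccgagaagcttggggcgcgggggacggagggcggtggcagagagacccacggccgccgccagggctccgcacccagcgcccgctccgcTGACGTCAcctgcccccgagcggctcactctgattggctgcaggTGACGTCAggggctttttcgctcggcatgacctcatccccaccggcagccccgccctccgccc

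The Dusp1 window holds 1 full cAMP response element, 143 to 136 bases before the start, a further TGACG from 191 to 187 and an E-box from 126 to 121. The Dusp2 window holds an E-box at 109 to 104. The Dusp5 window holds 2 adjoining CArG boxes, CCATATTTGG from 82 to 73 and CCTTATATGG from 72 to 63 bases before the start, and a TGACG on the other strand from 55 to 51. The Dusp8 window holds 2 full cAMP response elements, at 107 to 100 and 63 to 56. Among all 32851 windows of the table, 1.55% held at least 1 full cAMP response element and 10 windows held 2 or more. A CArG box was found in 1.47%, with 2 or more in 6 windows, an E-box in 6.02% and the TGACG core in 17.8%.

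The E-box was found in the windows of Dusp1 and Dusp2, with log2 ratios of 0.64 and 0.60, and the full cAMP response element in those of Dusp1 and Dusp8, with 0.64 and -0.06. The Dusp6 window, at a ratio of 0.59, held none of the 4 motifs shown. No window of the 8 genes held an AP-1 site (TGANTCA, in 6.75% of all windows), an ETS core (CCGGAA, in 12.0%) or a TATA box as spelled TATAAA (12.4%). GC boxes (GGGCGG) were in 6 of the 8 windows, against 32.7% of all windows, and CCAAT boxes (CCAAT) in 3 of the 8, against 33.8%. A match describes these letters in these windows and is no evidence of binding.

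**Figure D2:**
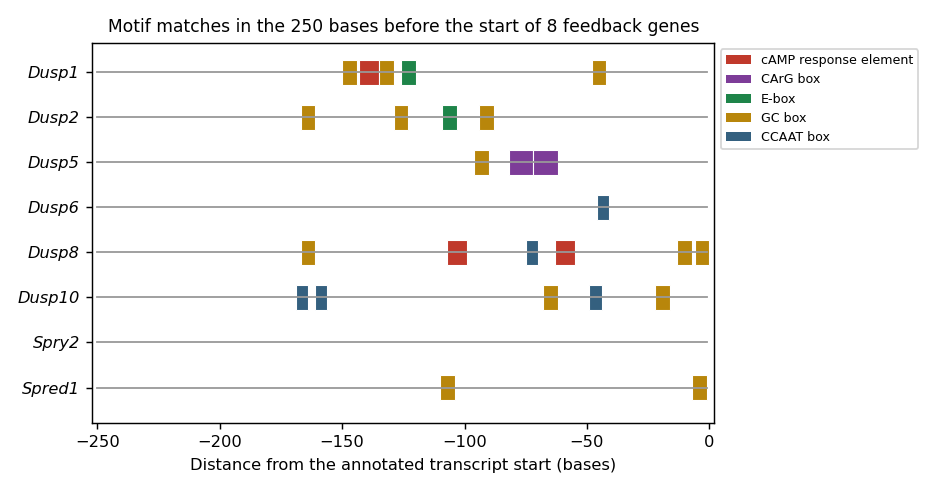
Position of motif matches in the 250 bases before the annotated transcript start of the 8 genes with a RefSeq promoter entry; the horizontal axis gives the distance from the start in bases and colours give the motif. The 2 CArG boxes of Dusp5 lie side by side, and full cAMP response elements appear in Dusp1 (1) and Dusp8 (2).

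Dusp6 encodes the cytoplasmic phosphatase selective for ERK and is a common readout of fibroblast growth factor signalling. Its relative signal was 5.95 after noise and 3.95 at baseline, from processed signals of 1880 and 1100. The log2 ratio was 0.59 (probe on chromosome 10, 98729985 to 98730044, mm9), close to those of Dusp1 and Dusp2.

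Dusp8 and Dusp10 encode phosphatases that prefer JNK and p38 to ERK. The 2 Dusp8 probes gave relative signals of 1.39 and 1.45 after noise, against 1.38 and 1.58 at baseline. Their log2 ratios were 0.01 (chromosome 7, 149265636 to 149265695, mm9) and -0.13 (149267534 to 149267593), so they differed in sign and the gene's value was -0.06. Dusp10 had a relative signal of 0.158 after noise and 0.142 at baseline, a log2 ratio of 0.15 (chromosome 1, 185898608 to 185898667, mm9). With normexp, an alternative background correction that models signal and background together, the Dusp10 ratio was -0.02.

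Spry2 and Spry4 encode Sprouty proteins, inhibitors of receptor tyrosine kinase signalling to ERK. Spry4, measured by a dim probe on chromosome 18, had a relative signal of 0.125 after noise and 0.0830 at baseline, from processed signals of 39.4 and 23.1. The log2 ratio of 0.59 was 0.11 with the normexp background, the largest move of any of the 10 genes between settings that kept the same probes. The 2 Spry2 probes had relative signals of 1.29 and 0.0859 after noise, against 1.19 and 0.0727 at baseline. Their log2 ratios were 0.11 for the brighter (chromosome 14, 106291385 to 106291444, mm9) and 0.24 for the dimmer (106291901 to 106291960).

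Spred1 encodes a Sprouty-related protein that brings neurofibromin to the membrane to switch off Ras. Its brighter probe (chromosome 2, 117007850 to 117007909, mm9) had a relative signal of 2.75 after noise and 2.63 at baseline, and its dimmer probe (116997721 to 116997780) had 0.272 after noise and 0.343 at baseline. The log2 ratios were 0.06 and -0.34. This gap of 0.40 was the widest between measured probes among the 4 genes with 2 of them, and no direction could be given for Spred1.

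**Figure D3:**
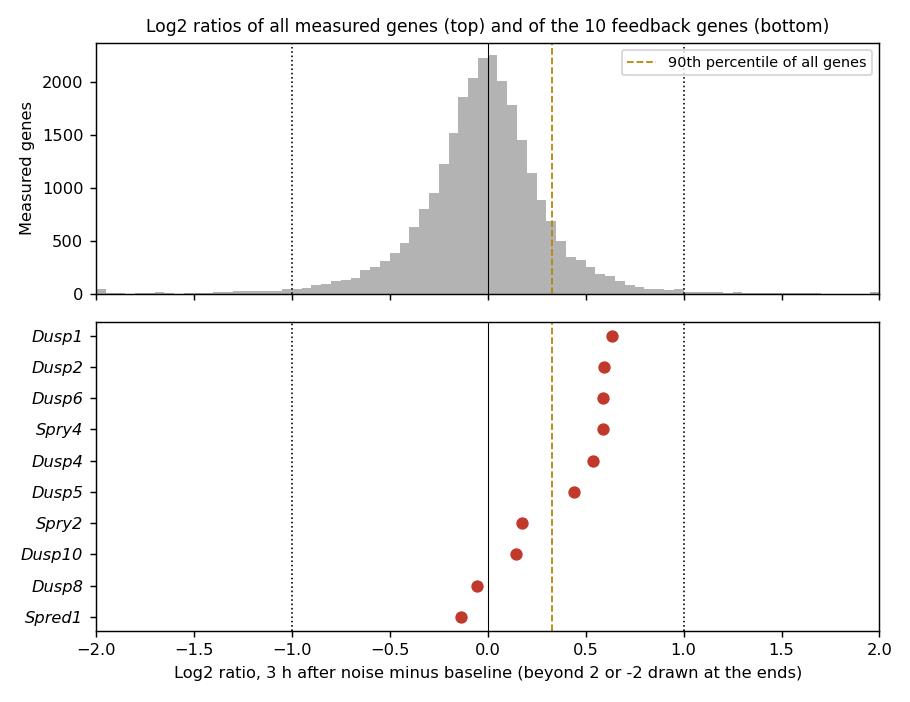
Top, the number of the 26533 measured genes at each log2 ratio (3 hours after noise minus baseline); bottom, the ratio of each of the 10 genes on the same axis, with 1 array per group and no error bars. Dotted lines mark 2-fold and the dashed line the 90th percentile of all measured genes; 6 genes lie between the dashed line and 2-fold.

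Over all 10 genes the median log2 ratio was 0.49, against -0.01 over all measured genes, and 8 of 10 were above 0, against 47.5% of all genes. The central 95% of all genes ran from -0.77 to 0.63, and Dusp1 lay just above its upper end (0.636 against 0.629). This depended on the setting. Dusp1 lay inside the range with no filter on dim probes (0.636 against 0.869) and with each gene's brightest probe (0.636 against 0.640). The 90th percentile of all genes was 0.33, and 6 of the 10 genes lay above it, against 10% of all genes by construction. These genes were proposed with results of the same arrays known, so the counts describe them and nothing particular to the group follows. The error of a single ratio could be judged only technically. The scanner software's own error estimates gave a log2 ratio an error of 0.20 to 0.22 for each of the 14 measured probes. Single probes spread around the mean ratio of their gene with a pooled SD of 0.27, over the 9350 genes with at least 2 measured probes. Neither figure includes the spread between animals, so neither can say which of the 10 ratios would recur in other mice.

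Ratios under 2 alternatives show how far the values moved. With normexp, Dusp1, Dusp6 and Dusp2 were at 0.64, 0.61 and 0.57, while Dusp5 was at 0.33, Dusp4 at 0.31 and Spry4 at 0.11, and the median of the 10 genes was 0.21. Over all measured genes the normexp median was -0.06, with 35.1% above 0. Their 90th percentile was 0.18 with normexp, against 0.33 in the main setting. With scaling to the 8 spike-in control probes in place of the 75th percentile, which moved the median of all genes to 0.16, all 10 genes were above 0, as were 73.4% of all measured genes.

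**Figure D4:**
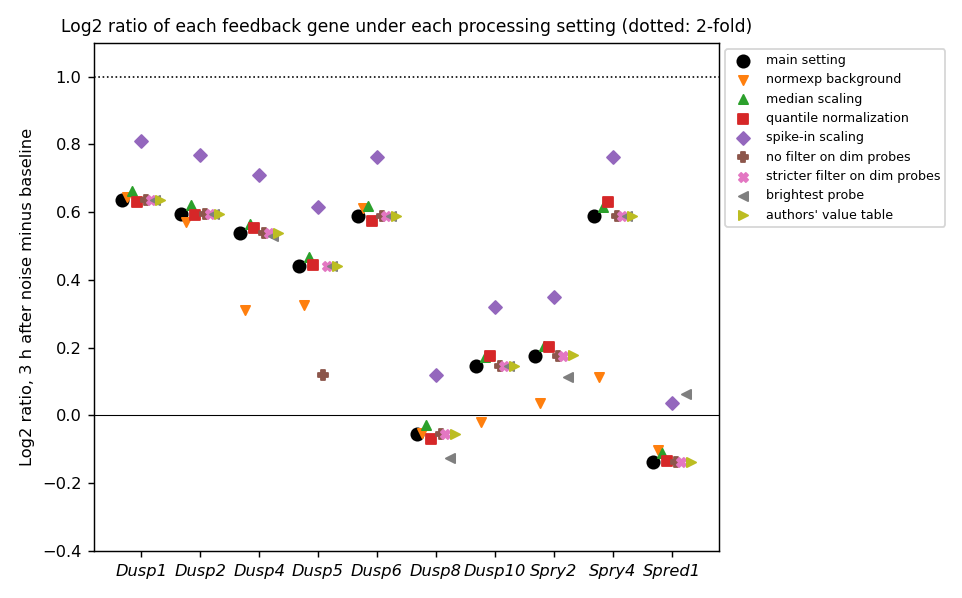
Log2 ratio (3 hours after noise minus baseline) of each gene under the main setting (black) and 8 alternatives, 1 value per setting and no error bars; the dotted line marks 2-fold. Dusp1, Dusp2 and Dusp6 stay between 0.57 and 0.81, Spry4 is lowest at 0.11 with the normexp background, and Dusp5 is at 0.12 when its dim probe is included.

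The other genes of the pathway were taken from lists of known members. The remaining MAP kinase phosphatases were Dusp7, another cytoplasmic ERK phosphatase, at a log2 ratio of 0.22, and Dusp16, a JNK and p38 phosphatase, at 0.14, while Dusp9 was not measured. The remaining Sprouty and Spred genes were all below 0 and under 2-fold, from Spry3 at -0.17 to Spred2 at -0.08, with a median of -0.10. Spry3 was measured by 1 dim probe, with processed signals of 11.7 after noise and 11.6 at baseline. The probes of Spred2 ran from -0.26 to 0.04 and those of Spred3 from -0.34 to 0.09, so each differed in sign. With spike-in scaling all 4 genes were above 0. Of 12 measured atypical dual-specificity phosphatases, small relatives that mostly do not act on MAP kinases, 4 were above 0 and none was past 2-fold. They ran from -0.76 for Dusp13, a phosphatase of muscle and testis measured by 1 dim probe, to 0.28 for Dusp12. Spike-in scaling placed 8 of the 12 above 0.

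Other feedback inhibitors of receptor tyrosine kinases had a median of -0.04 over 10 genes, with 4 above 0 and none past 2-fold. Errfi1, whose protein binds and inhibits the epidermal growth factor receptor, was highest at 0.55. Its 2 probes gave 0.54 and 0.56, a ratio like that of Dusp4. The ubiquitin ligase gene Cbl was lowest at -0.24, with probes at -0.54 and 0.06.

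The kinase genes themselves stayed nearer to 0. Of 10 ERK cascade kinases 6 were above 0, with a median of 0.03 and Braf lowest at -0.20. Of 16 JNK and p38 cascade kinases 8 were above 0, with a median of 0.01. They ranged from Mapk8, which encodes a JNK, at -0.24 to Map2k4, which encodes its activator, at 0.27. The 4 measured Mapk8 probes ran from -0.72 to 0.59, so no direction could be given for it. The Map2k4 probes gave 0.06 and 0.47. None of these 26 kinase genes was past 2-fold under any setting tried.

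Upstream, 5 of 13 measured EGF and FGF family ligand genes were above 0 and none was past 2-fold. Hbegf, a ligand of the epidermal growth factor receptor, was highest at 0.51 at processed signals of 275 after noise and 171 at baseline, and Fgf3 was lowest at -0.52. Areg, Ereg and Fgf20 were not well above background on both arrays. Of 8 receptor genes 2 were above 0, from Erbb4 at -0.22 to Erbb2 at 0.24. With spike-in scaling 8 of the 13 ligand genes and 7 of the 8 receptor genes were above 0.

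Downstream, the ETS factor genes Etv1, Etv4 and Etv5, which follow FGF signalling together with Dusp6 and Spry4, were between 0.11 for Etv5 and 0.16 for Etv1. They were below Dusp6 (0.59) in ratio. Immediate early genes, which serum and ERK signalling switch on, were above 0 for 15 of the 17 that were measured, and their median was 0.42. At least 2-fold higher were Ier3 (1.95), Fosb (1.20) and Fos (1.07), and Ier2 was lowest at -0.11, with probes at -0.33 and 0.11. With normexp Ier3 was at 1.35, Fos at 0.99 and Fosb at 0.43. The median of the immediate early genes was then 0.43, against 0.21 for the 10 feedback genes. The AP-1 gene Fosl1 passed the background test after noise but not at baseline, which gives at least 4.66-fold higher after noise. Of the 10 feedback genes, Spred1 (-0.14) was just below Ier2, but the probes of each of these genes differed in sign. The other feedback genes lay within the range of the immediate early genes. The highest, Dusp1 at 0.64, was below the 3 that passed 2-fold.

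**Figure D5:**
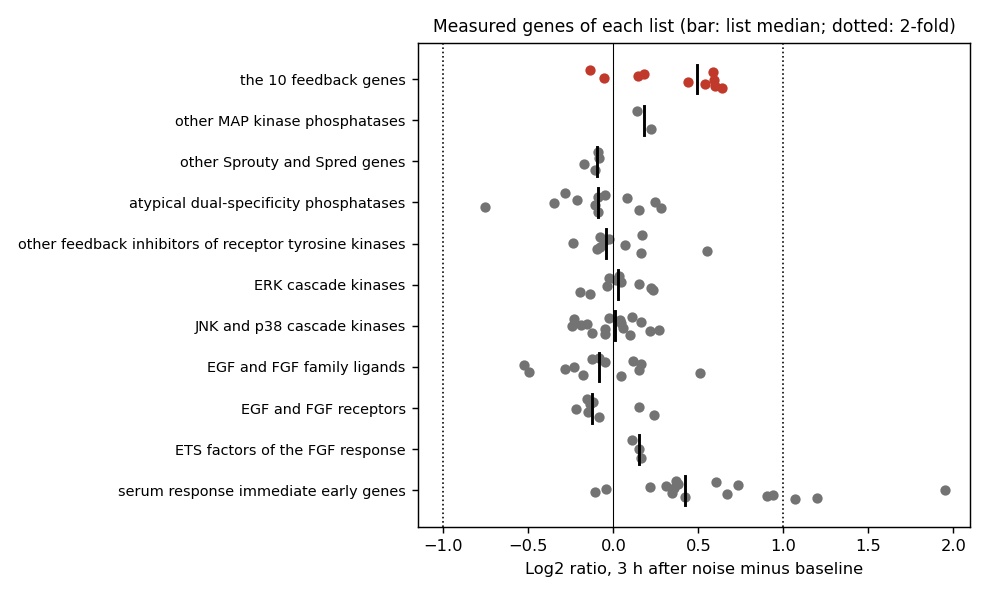
Log2 ratio (3 hours after noise minus baseline) of each measured gene of the 10 feedback genes (red) and of each other pathway list (grey), with 1 array per group; black bars are list medians and dotted lines 2-fold. The feedback genes (median 0.49) and the immediate early genes (median 0.42) lie furthest right, and the kinase, ligand and receptor lists lie around 0.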

How the data were processed

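Cochlear RNA of 2 samples was measured on 1-colour Agilent arrays, 1 per group. Spot intensity was read by the authors with Agilent Feature Extraction 11.5.1.1, per the file headers, which subtracted a background within each array and scaled nothing between them; probe positions are on mm9. A second deposited table has log2 values that differ from log2 of the processed signal by a constant per array (-8.30 noise, -8.12 baseline), with column medians of -2.81 (noise) and -2.79 (baseline).

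Control spots and outlier spots were left out, repeat spots were averaged as log2, and the 75th percentile over 56604 probes was taken off each array. Measured probes were the 41659 well above background on both arrays (75.3% passed for noise and 75.2% for baseline). A gene took the median log2 ratio of its measured probes. Where a probe was dim on 1 array, a lower bound replaced the fold, taken against that array's lowest level well above background, or the probe's level if higher. No spot of the 10 genes was saturated. With 1 array per group no test was run, a 2-fold rule stood in, and precision is limited by having 2 arrays. The 300 probes printed 10 times each gave a median SD of 0.07 for a log2 ratio, but were mostly brighter than the genes described. Python 3.11.15, numpy 2.4.6, pandas 2.3.3 and, for normexp (offset 50), limma 3.58.1 in R 4.3.3 were used. The scaling to the 75th percentile, the gene medians and the 2-fold rule were tested on simulated data made from the baseline array. The filter on dim probes, the alternative settings, the lower bounds and the motif search were not tested in this way.

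Named were all 10 genes, the highest, the lowest and any 2-fold gene of each pathway list, and up to 3 genes of a marker list. Of the genes this rule names, 1 is not reported here. The genes and lists were chosen with earlier results of these data known. Probe coordinates are those of the files (mm9); the annotation of that build was not used here, so exon and untranslated-region positions are not given, and probe sequences are not shown.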

Additional observations from a re-analysis of the deposited data

How the results depend on the processing

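No paired analysis was possible because there is 1 array for noise and 1 for baseline; leaving out a replicate was likewise not run. None of the 10 genes passed 2-fold under any of the 8 alternatives, and the median of the 10 genes ran from 0.21 (normexp background) to 0.66 (spike-in scaling), against 0.49. Of the single genes, Spry4 was at 0.11 with normexp and Dusp5 at 0.12 with no filter on dim probes, where its dim probe enters. Dusp8 was at 0.12 and Spred1 at 0.04 with spike-in scaling, Spred1 was at 0.06 with its brightest probe, and Dusp10 was at -0.02 with normexp; these signs are not fixed. Of the 10 genes, 5 instead of 6 lay above the 90th percentile of all genes with normexp and with no filter.

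Over all measured genes, 162 passed 2-fold in the higher direction and 332 in the lower (32.8% higher). The counts were 56 higher and 74 lower with normexp (43.1% higher), 301 and 217 with spike-in scaling (58.1% higher), 672 and 1296 with no filter, where dim probes enter, and 115 and 185 with the stricter filter, where fewer genes are tested. The normexp setting added 50 to every signal, and the share of this in its moves was not tested. Spike-in scaling moved every log2 ratio of the main setting by the same constant. Before scaling, log2 differences of the 8 spike-in controls (noise minus baseline) ran from -0.20 to 0.40, which fixes this constant loosely. Spry4, Dusp10 and the dimmer probes of Dusp4 and Spry2 had processed signals of 27.1 to 66.1 on the noise array.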
